A study of Mus musculus with 4 samples.

Results

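The clustered replication-dependent histone genes, which make the bulk histones of dividing cells, were followed in mouse spermatogonial stem cells with an inducible knockout of the microRNA miR-202. The family was chosen with earlier results of these data known. Its members were then taken by symbol alone, as all symbols that begin with Hist1h, Hist2h, Hist3h or Hist4h. Of 22552 symbols, 68 met this rule. The RNA-seq study asked which transcripts change when the knockout is induced. The 2 doxycycline libraries came from cells given 10 µg/ml of doxycycline, the drug that induces the knockout, for 2 days, and the 2 untreated libraries from cells kept without the drug. Cells of both groups had spent the preceding night on laminin. They share a DBA/C57 F1 background, male donors 5 to 7 days old, testis as the source, the genotype label wild type and the inducible design, whose promoter is not given in the sources used here. Each group rests on the clones iKO-SC-1 and iKO-SC-2, each a single clone. Pair changes and the replicate block treat libraries of equal replicate number as 1 clone, although no title says so, while the main test uses no pairing. The p-values capture no more than the variation among these 4 libraries.

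Histone octamers of H2A, H2B, H3 and H4 wrap DNA into nucleosomes, and the linker histone H1 binds where the DNA enters and leaves. The genes of this family mostly lie in clusters and lack introns, and they are transcribed strongly during S phase, when new DNA needs new nucleosomes. Their mRNAs typically end in a conserved stem-loop bound by the stem-loop binding protein Slbp and carry no poly(A) tail, unlike nearly all other mRNAs. Replacement histones such as H3.3 and H2A.Z come from other genes with ordinary polyadenylated mRNAs and are made throughout the cell cycle. In spermatogonial stem cells, which divide in culture, both kinds are in use, while a few clustered genes encode variants known from later male germ cells.

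The stem-loop could be read from the reference transcripts of these genes. A stem-loop with a perfect 6-base stem and a 4-base loop of the histone type was found in the GENCODE M21 (GRCm38) transcripts of 44 of the 68 members, against 14 of 21810 other protein-coding genes (0.0642%). Many of the other members have a reference model that stops at the coding sequence, so no match there says only that these letters are not in the model. The stem-loop was not always near the end of the model. It lay 3 bases from the end in Hist1h4m and 31 in Hist1h2ao, but 840 in Hist1h1c, 1643 in Hist3h2a and 4884 in Hist1h1d. The 44 sequences fall into 6 forms, of which the 5 found in at least 2 members are shown because they set the H4 class apart from the others (stem in capitals, loop in lower case, written as DNA, 5′ to 3′).
Hist1h4n: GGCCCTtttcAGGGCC
Hist1h4i: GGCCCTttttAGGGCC
Hist1h4j: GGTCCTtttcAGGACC
Hist1h2ao: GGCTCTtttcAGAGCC
Hist1h3c: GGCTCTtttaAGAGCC
The form of Hist1h2ao was the most frequent, in 26 members of the H1, H2A, H2B and H3 classes, and that of Hist1h3c was found in 6 members of the H1, H2B and H3 classes. The 3 forms shown for H4 genes, in 7, 2 and 2 members, were found in the H4 class alone.

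Promoter motifs also differed in frequency between the classes. RefSeq (GRCm38.p6) gave a promoter of 250 bases before to 50 after the gene start for 61 members, and 4 motifs were searched in them on both strands, none of which contains another. The octamer ATTTGCAT, the site of the Oct-1 protein encoded by Pou2f1, was in 7 of 17 H2A and 6 of 16 H2B promoters, in no promoter of the other classes, and in 1.75% of all 27025 promoters. CCAAT was in all 6 H1, 17 H2A, 16 H2B and 10 H3 promoters but in 3 of 12 H4 promoters, against 37.9% of all promoters. TATAAA was in 35 of the 61, against 14.2% of all. GGTCC, part of the element by which Hinfp recognises H4 genes, was in 11 of 12 H4 promoters, against 45.4% of all. The 250 bases before the start are shown for Hist1h4n, the member whose change passed the test, and for Hist1h2ah, which shares its upstream region with Hist1h2bk, with the motif matches in capitals.
Hist1h4n, chr13:21832198-21832447 (minus strand): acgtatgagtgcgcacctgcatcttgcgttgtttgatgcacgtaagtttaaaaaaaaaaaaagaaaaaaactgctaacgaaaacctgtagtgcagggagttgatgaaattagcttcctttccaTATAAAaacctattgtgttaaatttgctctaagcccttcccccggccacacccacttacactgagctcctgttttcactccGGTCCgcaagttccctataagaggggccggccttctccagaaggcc
Hist1h2ah, chr13:22035644-22035893 (minus strand): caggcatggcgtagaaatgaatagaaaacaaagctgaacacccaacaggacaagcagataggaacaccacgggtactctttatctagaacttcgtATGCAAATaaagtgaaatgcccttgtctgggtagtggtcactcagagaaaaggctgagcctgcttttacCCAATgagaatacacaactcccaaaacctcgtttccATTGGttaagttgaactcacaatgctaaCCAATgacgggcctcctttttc
A match is a run of letters and not a measured binding site.

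The members lie in 5 stretches of the mm9 genome. The largest hold the Hist1 genes on chromosome 13, with 23 symbols in the stretch at chr13:21807632-22135479 and 31 in the one at chr13:23622913-24026720. The Hist2 genes (10) lie at chr3:96023839-96074115, the Hist3 genes (3) at chr11:58762413-58770176, and Hist4h4 alone at chr6:136750074-136752952. By class there were 6 H1, 18 H2A, 19 H2B, 12 H3 and 13 H4 symbols. They take 73 lines of the table because Hist1h2ao, Hist1h2ap, Hist1h4n, Hist2h2aa1 and Hist2h2aa2 each have several lines, whose FPKM (fragment numbers scaled by the length of the transcript and the size of the library) were summed. Of the 73 lines, 34 have a locus no longer than a coding sequence, so part of the mRNA lies outside the model. The copies are alike, and a median of 46.4% of the 50-base windows of a member's reference transcript recur in another member (73.0% for H2A, 57.2% for H3, 40.1% for H2B, 39.5% for H4 and 1.11% for H1). How the authors' program divided fragments between copies is not given in the sources used here, so values of single copies are uncertain.

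Clustered histone mRNAs were scarce in these libraries. The 68 members summed to 219 and 217 FPKM in the doxycycline libraries, against 227 and 235 FPKM in the untreated libraries. That is 0.0698% and 0.0676% of each library's FPKM with doxycycline and 0.0733% and 0.0747% without. The doxycycline libraries lay below both untreated ones, by a log2 ratio of -0.05 in replicate 1 and -0.12 in replicate 2, and without Hist1h2ao the sums overlapped (170 and 158 FPKM against 159 and 168 FPKM). The 16 measured replacement histone genes together reached 837 and 830 FPKM with doxycycline and 793 and 805 FPKM without. Testing required a mean of 1 FPKM or more, which 36 members reached (33 Hist1, 1 Hist2 and 2 Hist3 genes), and 32 stayed below it. In bulk RNA, fewer cells of a kind and less RNA per cell cannot be told apart.

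Few fragments stand behind these values. The table of doxycycline replicate 1 alone gives confidence bounds, from which the number of fragments behind a value was computed, and 79.6% of 7762 such numbers came within 0.05 of a whole number. Over the 36 tested members the median was 12.9 fragments, with 17 members under 10, against a median of 595 over all tested genes. The bounds lay a median of 61.0% of the value away for tested members on a single line, and 8.20% for all tested genes. For the other libraries fragments were estimated from relative depth, read off the whole-number steps of low values, at 1.21 for doxycycline replicate 2, 1.33 for untreated replicate 1 and 1.54 for untreated replicate 2, in units of doxycycline replicate 1.

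**Figure D1:**
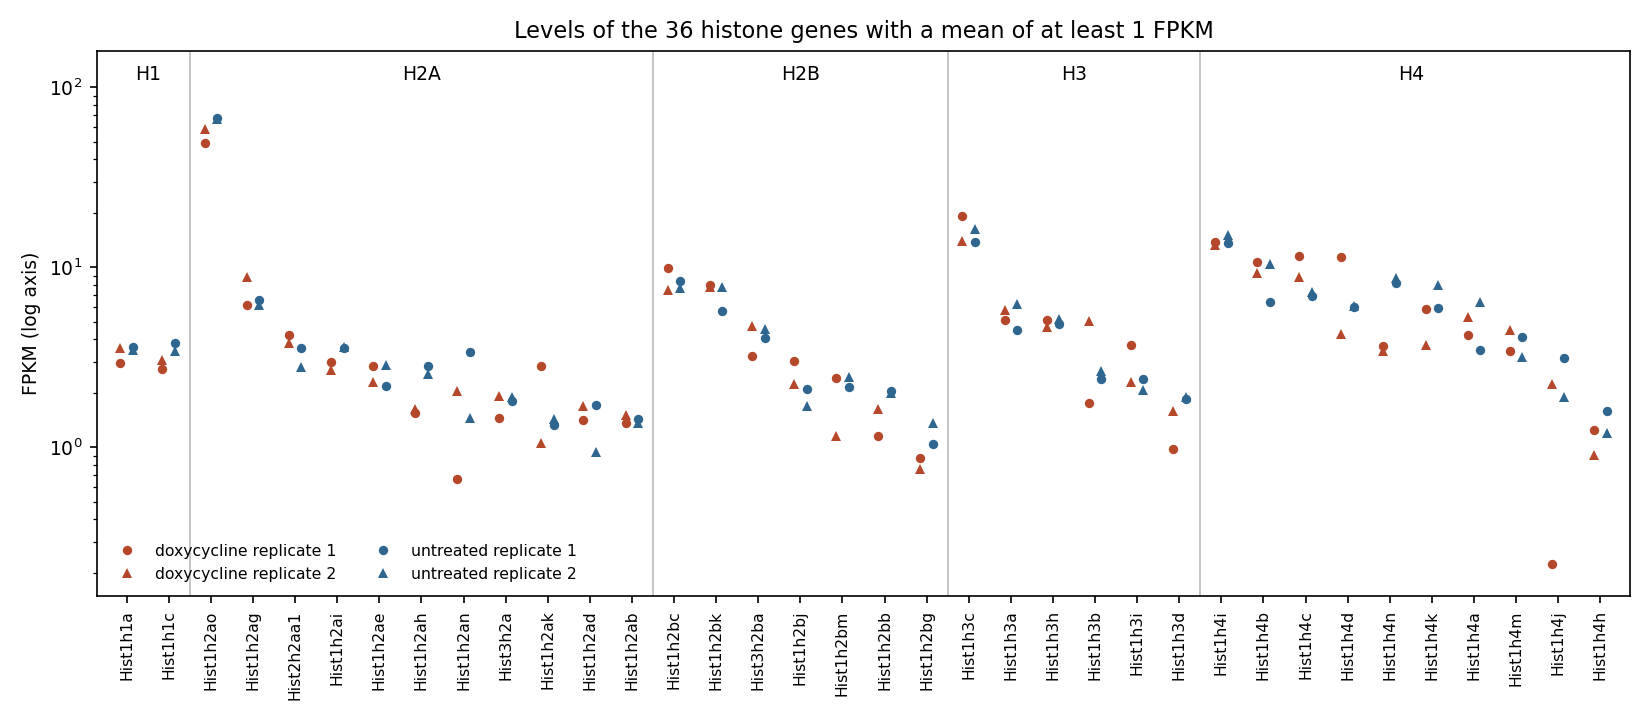
FPKM on a log axis of the 36 tested histone genes, by class and falling mean level; each point is 1 library, with doxycycline at the left and untreated at the right of each gene, circles for replicate 1 and triangles for replicate 2. Hist1h2ao stands above all others at 49.0 to 68.0 FPKM, and both doxycycline points of Hist1h4n (3.66 and 3.42 FPKM) lie below both untreated points (8.16 and 8.77 FPKM).

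A fall in Hist1h4n was the change that passed the test among the histone genes. With limma on log2(FPKM + 1), two-sided and Benjamini-Hochberg adjusted over all 11924 tested genes, 1 of the 36 tested members was lower and none higher at an adjusted p under 0.05, where 0.0587% of all tested genes were lower, 0.218% higher and 0.277% either. At an unadjusted p under 0.05 there were 8 lower members and 1 higher, 9 of 36 in all. Of all 11924 tested genes, 1799 (15.1%) were under it in either direction, 1009 of them (8.46%) higher and the rest lower. With the replicate number as a block in limma, 3 members were lower, namely Hist1h4n, Hist1h2ah and Hist1h2ao, and none higher, where 0.973% of all tested genes were lower, 2.73% higher and 3.7% either. The median log2 change over the 36 was -0.02, with -0.05 in replicate 1 and -0.13 in replicate 2, beside -0.002 over all tested genes. The median standard error was 0.13 for the members and 0.07 for all tested genes. Both doxycycline libraries lay below both untreated ones in 9 of the 36 tested members and above both in 3. The like share over all tested genes was not counted. With 2 libraries per group, such separation also arises often without any change, so groups that do not overlap are described below and not called.

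By class, the summed FPKM of H1 and H2A genes were lower with doxycycline in both pairs, those of H2B higher in both, and those of H3 and H4 went opposite ways. Such sums depend less than single genes on how fragments were divided between copies, and they were given no test. The 6 H1 genes summed to 6.06 and 7.07 FPKM with doxycycline, against 8.28 and 7.54 FPKM without, so the groups did not overlap. The 18 H2A genes summed to 74.9 and 87.1 FPKM with doxycycline, against 97.0 and 92.5 FPKM without, a log2 ratio of -0.23 (-0.37 in replicate 1 and -0.09 in replicate 2). Hist1h2ao gave 69.0% of the H2A sum, and without it the H2A groups overlapped, at 25.9 and 28.4 FPKM against 29.1 and 25.5 FPKM. The 19 H2B genes summed to 32.0 and 31.0 FPKM with doxycycline, against 27.8 and 29.8 FPKM without, a log2 ratio of 0.13. The H3 sums were 39.1 and 35.5 FPKM with doxycycline and 32.8 and 36.6 FPKM without, and the H4 sums 67.2 and 56.0 FPKM with doxycycline and 60.7 and 68.4 FPKM without. In both of these classes the values of the groups overlapped.

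**Figure D2:**
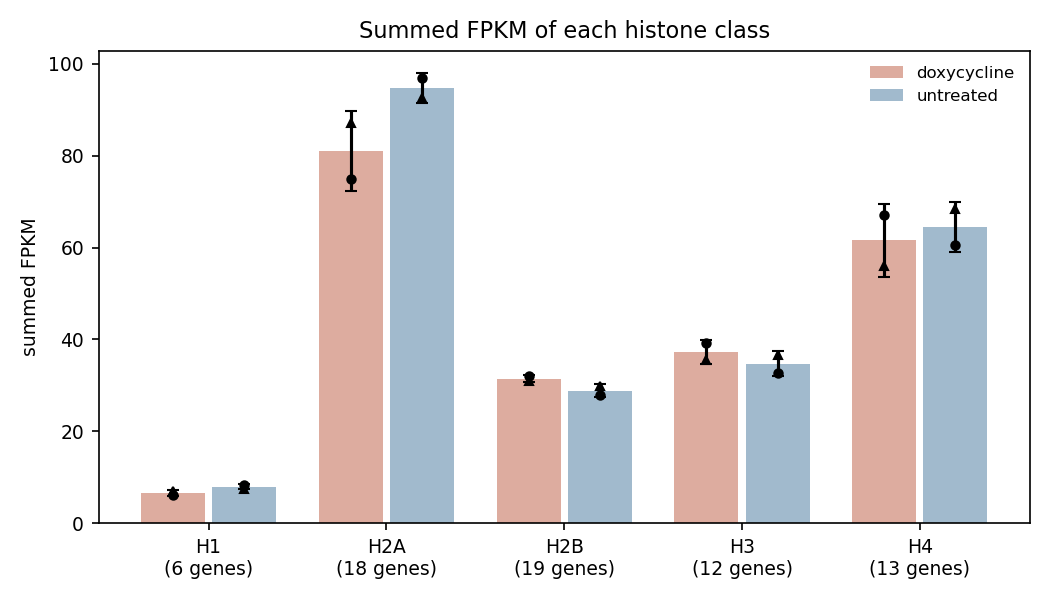
Summed FPKM per histone class; bars are the group mean and error bars its SD over 2 libraries, with doxycycline left of untreated, and points are libraries (circles replicate 1, triangles replicate 2). The H2A bars differ most in FPKM (81.0 against 94.8), and the points of the H3 and H4 groups overlap.

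H4 is the core histone with the least variation between its genes, and 10 of its 13 genes were tested. Hist1h4n had 3.66 and 3.42 FPKM in the doxycycline libraries, against 8.16 and 8.77 FPKM in the untreated libraries. Both doxycycline values were under both untreated values, in each pair. Its mean with doxycycline was 0.418 of that without, and its log2 change was -1.06 ± 0.07 (SE; adjusted p = 0.0170 with limma, and 0.000866 with the replicate block). An estimated 5.09 and 5.74 fragments stood behind the doxycycline values and 15.1 and 18.8 behind the untreated ones. These estimates apply the FPKM of 1 fragment on its higher line to the sum of its lines. The bounds themselves give 4.55 fragments in doxycycline replicate 1, and on its higher line they lay 94.5% of the value away. The SE and adjusted p come from the spread among libraries, moderated over all tested genes, and do not use fragment numbers. They may therefore understate the counting error of so few fragments.

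The value of Hist1h4n joins 2 loci, of which 1 overlaps a neighbouring gene. One, at chr13:21923716-21924027, had 3.22 and 3.42 FPKM with doxycycline and 5.67 and 5.30 FPKM without. The other, at chr13:21903653-21903964, lies inside the locus of another H4 gene, Hist1h4m (chr13:21903615-21904019), and had 0.438 and 0.000135 FPKM with doxycycline and 2.49 and 3.47 FPKM without. In doxycycline replicate 1 that inner locus carried the status LOWDATA and not OK, with 0.0680 computed fragments and bounds from 0 to 3.79 FPKM. Its low values are thus not well measured levels. Hist1h4m itself had 3.45 and 4.48 FPKM with doxycycline and 4.13 and 3.20 FPKM without, so its groups overlapped. Hist1h4n and Hist1h4m summed to 7.10 and 7.90 FPKM with doxycycline, against 12.3 and 12.0 FPKM without, and that sum also passed (log2 change -0.63 ± 0.07, limma adjusted p = 0.0373, an alternative chosen after the data were seen). With the higher locus alone the log2 change was -0.59 and missed the threshold (limma adjusted p = 0.0567). With both loci, the log2 change stayed between -1.11 and -1.01 whichever library was left out, and the threshold was missed without doxycycline replicate 2 (limma adjusted p = 0.0631), untreated replicate 1 (0.105) or untreated replicate 2 (0.128). With no filter on low values the change was -1.06 and the adjusted p 0.229. The rest of the H4 class without Hist1h4n summed to 63.5 and 52.6 FPKM with doxycycline and 52.5 and 59.7 FPKM without, which overlap.

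The other H4 genes did not pass. Hist1h4c was the tested member with the largest positive log2 change, at 11.6 and 8.80 FPKM with doxycycline, against 6.92 and 7.30 FPKM without. Its groups did not overlap, and its log2 change of 0.45 ± 0.12 missed the threshold (limma adjusted p = 0.203, block 0.0543). Hist1h4i, the most abundant H4 gene, had 13.9 and 13.4 FPKM with doxycycline and 13.7 and 15.1 FPKM without. With at least 89.3 fragments in each library it was also the best measured H4 gene, and its log2 change was -0.07 with a 95% interval from -0.23 to 0.08.

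Several other H4 genes had large changes that differed between the pairs. Hist1h4j had 0.224 and 2.24 FPKM with doxycycline and 3.14 and 1.90 FPKM without, a log2 change of -1.76 in replicate 1 and 0.16 in replicate 2. Its low value in doxycycline replicate 1 rests on less than 1 computed fragment (0.312). Hist1h4k had 5.85 and 3.72 FPKM with doxycycline and 5.93 and 7.97 FPKM without, with pair changes of -0.02 and -0.92. In each of these genes the change lay almost wholly in 1 pair. Hist1h4d had 11.5 and 4.29 FPKM with doxycycline and 6.05 and 6.09 FPKM without, so the doxycycline values lay on either side of the untreated ones. Hist1h4b had 10.8 and 9.32 FPKM with doxycycline and 6.43 and 10.5 FPKM without, which overlap. Hist1h4h, a low H4 gene, had 1.25 and 0.907 FPKM with doxycycline and 1.59 and 1.21 FPKM without, with pair changes of -0.20 and -0.21.

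Among H2A genes, Hist1h2ao supplied most of the signal. It had 49.0 and 58.7 FPKM with doxycycline, against 68.0 and 67.0 FPKM without, and was 27.0% of the FPKM of all members. Its groups did not overlap, and its log2 change of -0.33 ± 0.08 missed the threshold without the block (limma adjusted p = 0.192) and passed with it (0.0414). The 2 loci of Hist1h2ao carried nearly the same value (24.5 and 24.5 FPKM in doxycycline replicate 1). The lines of Hist1h2ap, an H2A gene inside both of those loci, stayed under 0.001 FPKM in every library.

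Hist1h2ah had 1.56 and 1.64 FPKM with doxycycline, against 2.83 and 2.55 FPKM without. Both doxycycline values were lower, with pair changes of -0.58 and -0.43, and the log2 change was -0.50 ± 0.09 (limma adjusted p = 0.103, block 0.0294). It rests on an estimated 4.72 and 5.99 fragments with doxycycline and 11.4 and 11.8 without. Its SE does not use these numbers, and its bounds in doxycycline replicate 1 lay 92.0% of the value away. Hist1h2ai had 2.98 and 2.69 FPKM with doxycycline and 3.55 and 3.63 FPKM without, also without overlap, and passed in neither fit (log2 change -0.26, limma adjusted p = 0.240, block 0.115).

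Hist2h2aa1, the tested Hist2 gene, was on the other side, with 4.20 and 3.81 FPKM with doxycycline and 3.57 and 2.80 FPKM without. Its log2 change of 0.26 ± 0.11 did not pass (limma adjusted p = 0.337). Hist1h2ag had 6.20 and 8.86 FPKM with doxycycline and 6.57 and 6.20 FPKM without. Hist3h2a, which lies apart on chromosome 11, had 1.46 and 1.92 FPKM with doxycycline and 1.82 and 1.92 FPKM without. Neither of these last genes separated the groups.

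Hist1h2an, Hist1h2ak and Hist1h2ae had pair changes of opposite sign. Hist1h2an had 0.665 and 2.07 FPKM with doxycycline and 3.38 and 1.45 FPKM without, from an estimated 2.10 and 7.89 fragments against 14.2 and 7.07. Its pair changes were -1.40 and 0.32. Hist1h2ak had 2.85 and 1.06 FPKM with doxycycline and 1.33 and 1.43 FPKM without, and Hist1h2ae 2.84 and 2.31 FPKM with doxycycline and 2.20 and 2.88 FPKM without.

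No H2B gene passed in either fit. Hist1h2bc, the most abundant and the best measured with at least 98.3 estimated fragments per library, had 9.90 and 7.52 FPKM with doxycycline and 8.36 and 7.69 FPKM without. Its groups overlapped, and the 95% interval of its log2 change ran from -0.20 to 0.39. Hist1h2bk had 8.03 and 7.80 FPKM with doxycycline and 5.75 and 7.83 FPKM without. Hist3h2ba, from the chromosome 11 stretch, had 3.23 and 4.75 FPKM with doxycycline and 4.05 and 4.56 FPKM without. Hist1h2bj was higher in both pairs, at 3.01 and 2.25 FPKM with doxycycline against 2.12 and 1.70 FPKM without, with a log2 change of 0.31 ± 0.13 (limma adjusted p = 0.338). Hist1h2bb was lower in both pairs without overlap, at 1.16 and 1.65 FPKM with doxycycline against 2.06 and 2.00 FPKM without (log2 change -0.34, limma adjusted p = 0.270, unadjusted p = 0.0271). Hist1h2bg was so too, at 0.870 and 0.754 FPKM with doxycycline against 1.05 and 1.36 FPKM without (log2 change -0.28, limma adjusted p = 0.319, unadjusted p = 0.0445). Hist1h2bm had pair changes of 0.11 and -0.68.

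No H3 gene passed in either fit. Hist1h3c, the most abundant H3 gene, had 19.3 and 14.1 FPKM with doxycycline and 13.9 and 16.4 FPKM without. Its groups overlapped, with a log2 change of 0.12 and a 95% interval from -0.23 to 0.47. Hist1h3a had 5.09 and 5.81 FPKM with doxycycline and 4.47 and 6.26 FPKM without, and Hist1h3h 5.10 and 4.64 FPKM with doxycycline and 4.83 and 5.15 FPKM without. In both genes the groups overlapped. Hist1h3i was higher with doxycycline in both pairs (0.47 and 0.11), at 3.71 and 2.31 FPKM against 2.40 and 2.08 FPKM, although the groups overlapped. Hist1h3b had 1.76 and 5.06 FPKM with doxycycline and 2.42 and 2.66 FPKM without, so that doxycycline replicate 2 stood above and replicate 1 below the untreated values. Hist1h3d was lower in both pairs (-0.52 and -0.16), and both doxycycline values were below both untreated ones. Its log2 change of -0.34 ± 0.14 did not pass (limma adjusted p = 0.328, unadjusted p = 0.0486).

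Of the linker histones, the somatic genes Hist1h1a and Hist1h1c were tested. Hist1h1a had 2.93 and 3.59 FPKM with doxycycline and 3.62 and 3.50 FPKM without, which overlap. Hist1h1c had 2.74 and 3.05 FPKM with doxycycline, against 3.82 and 3.43 FPKM without. Its groups did not overlap, an estimated 82.0 or more fragments stood behind each value, and its log2 change of -0.25 ± 0.09 missed the threshold (limma adjusted p = 0.289, block 0.160). Hist1h1b lay below the level for testing, at 0.105 and 0.0865 FPKM with doxycycline and 0.541 and 0.203 FPKM without, which is an estimated 1.00 and 0.998 fragments against 6.89 and 2.98.

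The testis-type members were near the limit of detection. Hist1h2ba, known as the H2B variant of male germ cells, was listed at 0.694 and 1.13 FPKM with doxycycline and at 0 in both untreated libraries. An estimated 2.05 and 4.05 fragments stand behind the doxycycline values, too few for a fold or a test. Hist1h2aa, its H2A partner gene, had 0.324 and 0.271 FPKM with doxycycline and 0.452 and 0.209 FPKM without, and Hist1h1t, the linker histone of spermatocytes, 0.0665 and 0.164 FPKM with doxycycline and 0.198 and 0.172 FPKM without. The groups overlapped for Hist1h2aa. For Hist1h1t both doxycycline values were below both untreated ones, from an estimated 1.00 and 2.99 fragments against 3.97 and 3.97. Among the 32 members below the level for testing, Hist1h2bh, Hist2h2ab, Hist2h2ac and Hist3h2bb-ps were listed at 0 in every library, and Hist1h2ap and Hist2h2aa2 stayed under 0.001 FPKM.

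Most tested histone genes had log2 changes of opposite sign in the same-numbered pairs. Of the 36 members, 10 were lower in both pairs and 4 higher in both, where 34.0% of all tested genes were lower in both and 32.8% higher in both. The remaining 22 had opposite signs. The share with the same sign was 38.9% for the members, 66.8% for all tested genes and 64.0% for the 5503 tested genes between 1 and 10 FPKM, and the difference was not tested. That last set was matched by FPKM and not by fragments. In doxycycline replicate 1 the tested members had a median of 12.9 fragments, against 595 over all tested genes. Across the 36 genes the changes of the pairs had a Pearson correlation of -0.02 and a Spearman correlation of -0.07, and -0.18 and -0.15 without Hist1h4n. Over all tested genes they were 0.57 and 0.45. These are correlations across genes that share libraries and, for the histones, fragments, and genes are not independent replicates.

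**Figure D3:**
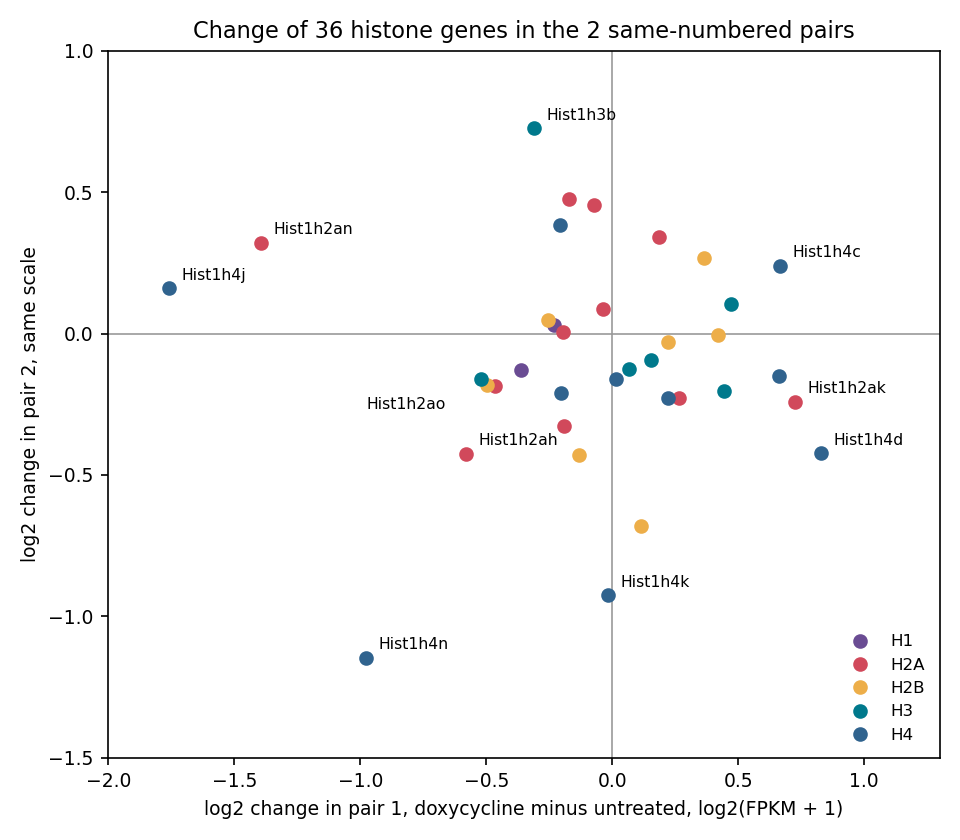
Log2 change of each of the 36 tested histone genes in replicate 1 (horizontal) and in replicate 2 (vertical), doxycycline minus untreated on the log2(FPKM + 1) scale, coloured by class. Hist1h4n is alone at the lower left (-0.98 and -1.15), while Hist1h4j and Hist1h2an are far left but above 0, and Hist1h4k is low on the line of no change in replicate 1.

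The largest pair changes were those of members with few fragments in some library. The members with at least 50 estimated fragments in every library were Hist1h2ao, Hist1h1c, Hist3h2a, Hist1h2bc, Hist1h3c and Hist1h4i, and the largest of their pair changes was -0.47, that of Hist1h2ao in replicate 1. Changes beyond 0.8 in a pair were those of Hist1h4n, Hist1h4j, Hist1h4k, Hist1h2an and Hist1h4d. Each of these had under 10 fragments in at least 1 library. The estimates scale with FPKM, so a gene that is low in 1 library also has few fragments there, and this link is partly built in. Some members with few fragments changed little, such as Hist1h2ab, with 7.87 fragments in doxycycline replicate 1 and pair changes of -0.04 and 0.09. How far counting error sets those changes was not tested.

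**Figure D4:**
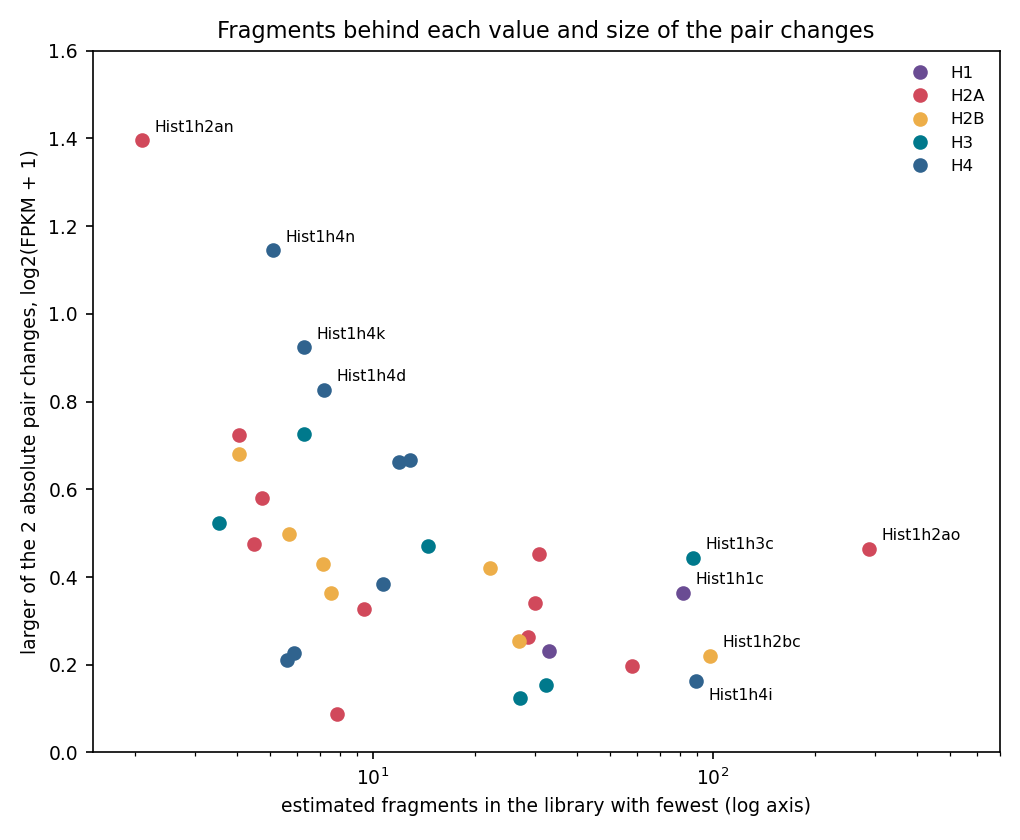
Estimated fragments in the library with fewest (log axis) against the larger of the 2 absolute pair changes on the log2(FPKM + 1) scale, for the 35 tested histone genes with an estimate, coloured by class; Hist1h4j has none. Hist1h2an, with 2.10 fragments, shows the largest change (1.40 in size), and Hist1h2ao, with 288, one of 0.47 in size.

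By position, the stretch of chromosome 13 that holds Hist1h2ao and Hist1h4n was lower with doxycycline in both pairs. Its 23 symbols summed to 114 and 124 FPKM with doxycycline, against 140 and 140 FPKM without, and Hist1h2ao made up 46.8% of that sum. The other chromosome 13 stretch summed to 93.2 and 80.5 FPKM with doxycycline and 74.8 and 83.8 FPKM without, which overlap. Of 10 symbols of other genes inside the stretches, the zinc finger gene Zfp184 alone was tested, at 5.55 and 5.01 FPKM with doxycycline and 5.67 and 5.73 FPKM without (log2 change -0.10, limma adjusted p = 0.588).

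H2A and H2B genes often lie head to head and share a promoter region. The search took only symbols on a single line, which leaves out Hist1h2ao. It found 11 such pairs, with 172 to 334 bases between the loci. Both partners were tested in 3 of these pairs, and in none of the 3 did all pair changes have the same sign. In doxycycline replicate 1, Hist1h2ah, Hist1h2bj and Hist1h2bg had 4.72, 8.69 and 7.16 fragments. With so few pairs and fragments, whether partners change together cannot be read from these signs. Hist1h2ah had pair changes of -0.58 and -0.43, and its partner Hist1h2bk, across the sequence printed above, 0.42 and -0.005. Hist1h2ag had -0.07 and 0.45 and Hist1h2bj 0.36 and 0.27. Hist1h2ae had 0.26 and -0.23 and Hist1h2bg -0.13 and -0.43.

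Replacement histone genes were more abundant, and their changes were within 0.35 on the log2 scale. None of 11 tested genes passed with limma over all genes. At an unadjusted p under 0.05 there were 4 higher and 1 lower, against 15.1% of all tested genes in either direction. With the replicate block, under which 2.73% of all tested genes were higher, 2 rose. These were H2afj, an H2A variant gene, at 13.5 and 13.3 FPKM with doxycycline against 10.5 and 10.2 FPKM without (log2 change 0.35, adjusted p = 0.0724, block 0.0181), and Cenpa, the H3 variant of centromeres, at 89.9 and 97.8 FPKM with doxycycline against 77.0 and 74.0 FPKM without (0.31, adjusted p = 0.0894, block 0.0199). The median over the 11 was 0.006. H3f3b, which encodes H3.3, had 169 and 170 FPKM with doxycycline and 157 and 162 FPKM without.

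Among genes that make and process histone mRNA the largest log2 change was -0.30. Of 35 tested genes of histone transcription and 3′ end processing, none passed with limma. At an unadjusted p under 0.05 there were 4 lower and none higher, against 15.1% of all tested genes in either direction. With the replicate block, under which 0.973% of all tested genes were lower, 2 were lower. These were Upf1, the helicase that takes part in histone mRNA decay, at 45.1 and 44.3 FPKM with doxycycline against 53.8 and 52.5 FPKM without (log2 change -0.24, adjusted p = 0.0749, block 0.0190), and Pou2f1, at 7.76 and 6.60 FPKM with doxycycline against 9.64 and 8.53 FPKM without (-0.30, adjusted p = 0.236, block 0.0413). The stem-loop binding protein gene Slbp had 111 and 106 FPKM with doxycycline and 108 and 114 FPKM without, and Npat, the coactivator of histone genes, 12.2 and 11.8 FPKM with doxycycline and 12.4 and 12.4 FPKM without. Hinfp had a log2 change of -0.07.

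Of 24 histone chaperone genes none passed with limma, 4 higher and 1 lower had an unadjusted p under 0.05, and Cabin1, a subunit of the HIRA complex, was lower with the block (log2 change -0.25, adjusted p = 0.209, block 0.0219). Of 30 S phase genes none passed with limma, 2 higher and 5 lower had an unadjusted p under 0.05, and cyclin A2 (Ccna2) was higher with the block (0.33, adjusted p = 0.0576, block 0.00795). Over all tested genes 15.1% had an unadjusted p under 0.05 in either direction, and with the block 0.973% were lower and 2.73% higher. The medians of the chaperone and S phase lists were -0.01 and -0.005. Pcna, the sliding clamp of replication, had 59.2 and 60.2 FPKM with doxycycline and 58.8 and 63.0 FPKM without.

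Other RNAs, listed as lacking a poly(A) tail, were set beside the histone mRNAs, since both may depend on how a library selects RNA. That each form of each of them, such as those of Neat1, lacks a tail was not checked here. Of 123 such symbols in the tables, 114 were listed at 0 in every library and 7 were tested. Rmrp, the RNA of the RNase MRP enzyme, had 62.7 and 25.4 FPKM with doxycycline and 35.9 and 55.1 FPKM without. Rpph1, the RNA of RNase P, had 11.5 and 8.19 FPKM with doxycycline and 7.95 and 10.2 FPKM without. Both were highest in doxycycline replicate 1 and next in untreated replicate 2. The H3 sum was highest in the same libraries in that order, and the H4 sum in the reverse order. The other classes differed. The H1 and H2A sums were highest in untreated replicate 1 (8.28 and 97.0 FPKM). The H2B sum was highest in the doxycycline libraries (32.0 and 31.0 FPKM). Malat1, Rn4.5s and Neat1, given next, did not share the order of Rmrp and Rpph1 either. Malat1, a long nuclear RNA, fell to 29.5 and 32.8 FPKM with doxycycline, against 61.6 and 60.8 FPKM without (log2 change -0.95, limma adjusted p = 0.00831), and the small nucleolar RNA gene Snora78 stood at 0 with doxycycline in both cases, against 1110 and 2289 FPKM without. Rn4.5s, a small RNA of rodents, was on the other side, at 855 and 1394 FPKM with doxycycline against 330 and 928 FPKM without. Its groups overlapped, and its log2 change of 0.98 ± 0.47 did not pass (limma adjusted p = 0.387), while it did with the replicate block (0.0193). Neat1, another long nuclear RNA, had 9.82 and 10.3 FPKM with doxycycline and 8.74 and 9.15 FPKM without. Whether RNA selection has a part in the histone values was not tested, and the selection step is not given in the sources used here.

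All 14 listed markers of undifferentiated spermatogonia were measured and tested, and their sum was 1129 and 1096 FPKM with doxycycline and 1118 and 1133 FPKM without. None of the 14 passed with limma. At an unadjusted p under 0.05 there were none higher and 3 lower, against 15.1% of all tested genes in either direction. Utf1 and Nanos3 were lower with the replicate block in limma (adjusted p = 0.0479 and 0.0413), where 0.973% of all tested genes were lower. Feeder fibroblast markers, all 10 of them measured, summed to 187 and 172 FPKM with doxycycline and 185 and 159 FPKM without. The Sertoli list summed to 7.07 and 8.48 FPKM with doxycycline and 6.05 and 7.08 FPKM without, and the macrophage and blood list to 4.57 and 7.38 FPKM with doxycycline and 5.49 and 4.30 FPKM without. Their part in the histone values was not tested. Mir202, the targeted gene, was listed at 0 in all 4 libraries, which checks neither the knockout nor the labels.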

How the data were processed

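Total RNA (TRIzol) of 2 doxycycline and 2 untreated libraries was read on a HiSeq4000, per the labels' protocols. Per the file headers, the authors deposited FPKM per gene in Cufflinks format. The submitters' processing notes name TopHat2 2.0.6, Cufflinks 2.0.2, Cuffdiff and the build mm9, without roles. The gene annotation, the strand setting, the library selection and the treatment of fragments that match several copies appear nowhere in the labels or headers, and depth in reads is unknown.

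The tables of 23021 lines were joined by symbol, adding up FPKM where a symbol had several lines (259 symbols). Where the 4 libraries averaged 1 FPKM or more, log2(FPKM + 1) was fitted with limma 3.58.1 in R 4.3.3, with an intensity trend, two-sided, with Benjamini-Hochberg adjustment over all 11924 and a threshold of 0.05. Changes on this scale understate those of low genes. The procedure was tested on simulated data, with results not given here. How well it performs for genes with few fragments was not tested. Same-numbered libraries deviated together across genes (correlation 0.2145), and the design text names the clones without tying them to numbers, so the pairing by clone is an assumption. The replicate block is given where it changes a call. Fragments behind a value were computed from the deposited bounds, as the square of 2 times FPKM over its distance to the upper bound, and cover counting error only. Loci are mm9, from the table of doxycycline replicate 1. Sequences are RefSeq or GENCODE M21, matched by symbol (61 promoters, 68 transcripts).

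Named are the markers of the group, members past the threshold in either fit, the 4 most abundant of each class, tested Hist2 and Hist3 genes, the 5 largest falls and the 4 rises in both pairs, the 5 most opposite pairs, testis-type members, and in comparison lists those past the threshold and some of the largest changes. Npat, Slbp, Hinfp, Pcna, H3f3b, Rmrp, Rpph1, Neat1 and the other members named beside these were added for their role after values were seen. The members and lists were chosen with earlier results of these data known. Alternatives were the block, another pseudocount, other filters, scalings, moderation and treatment of repeated symbols, and leaving out each library.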

Additional observations from a re-analysis of the deposited data

Results flagged for a closer look

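In 5 histone genes the change with doxycycline had opposite signs in the same-numbered pairs. The values are log2 changes in replicate 1 and then in replicate 2, each from 1 library against 1 library, and the difference between the pairs was not tested. They were 0.83 and -0.42 for Hist1h4d, -1.40 and 0.32 for Hist1h2an, -0.31 and 0.73 for Hist1h3b, 0.72 and -0.24 for Hist1h2ak, and 0.26 and -0.23 for Hist1h2ae. The 5 were picked for this, as the tested members of opposite sign whose smaller pair change was largest.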

How the results depend on the processing

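With the replicate block the count of genes called rose to 441 (325 higher, 116 lower) and that of histone genes to 3 (Hist1h2ah, Hist1h2ao and Hist1h4n), and the block with Hist1h4n and Hist1h4m summed gave 3 as well. Without a filter on low values 1 gene and 0 histone genes were called, with a filter of 5 FPKM 88 genes, and with the highest line per symbol 0 histone genes. Leaving out each library in turn gave 2 to 60 genes and 0 to 1 histone genes, and in each of these fits a lone library was taken to vary like the other group. Hist1h4n kept its call without doxycycline replicate 1 and lost it without any of the other libraries, at log2 changes between -1.11 and -1.01. Quantile normalization gave 48 genes (40 higher, 8 lower) and median-ratio scaling 44 (37 higher, 7 lower). The median log2 change over the tested histone genes was 0.11 with the filter of 5 FPKM, which leaves 12 of them, and -0.11 to -0.020 when a library was left out. The class sums kept their direction in each alternative run, except that the log2 ratio of H4 was 0.049 with symbols on several lines left out, which also brought that of H2A to -0.058. Of 322 values of the 28 named tested members under alternatives, 299 kept direction and side of the threshold, 2 gained a call, 5 lost one and 16 changed sign. All 16 came from leaving out a library, in 13 genes whose log2 changes then ranged as follows: Hist1h1a (-0.21 to 0.011), Hist1h2ae (-0.12 to 0.16), Hist1h2ag (-0.037 to 0.42), Hist1h2ak (-0.21 to 0.69), Hist1h2bc (-0.082 to 0.27), Hist1h3a (-0.17 to 0.23), Hist1h3b (-0.36 to 0.78), Hist1h3c (-0.091 to 0.33), Hist1h3h (-0.086 to 0.027), Hist1h4b (-0.057 to 0.57), Hist1h4d (-0.42 to 0.82), Hist3h2a (-0.22 to 0.029) and Hist3h2ba (-0.32 to 0.12). None of the 13 was called in any fit. The cause of these shifts was not tested, beyond the fewer genes or libraries that some alternatives use. Depth limits single members most, with a median of 12.9 fragments behind a tested member in doxycycline replicate 1.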
